A study of Mus musculus with 8 samples.

Results

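The 35 genes described here carry hepatic carbohydrate metabolism: glucose entry and sensing, glycolysis, fructose phosphorylation, gluconeogenesis, pyruvate entry and oxidation, and glycogen turnover. They were chosen by name, by pathway branch, and found in the liver count table through their Ensembl identifiers. All 35 of the 35 were among the 18095 genes of the table, and all 35 passed the filter on low counts that left 14866 genes for testing. The libraries came from livers of 12-week-old male mice on a high-fat diet (HFD), 4 labelled WT and 4 labelled Inpp4b-/-, a knockout of inositol polyphosphate-4-phosphatase type II B. Both groups had the same diet, and in the study's methods the dams were also on it before mating and through lactation, so these data hold no comparison of diets. The strain background is C57BL/6 in the sample labels and FVB in the study's methods. The discussion of the study places its liver expression data in fed animals, while its methods do not describe feeding before collection.

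In the liver, glucose enters through GLUT2 and is trapped by phosphorylation, a step held in check by a regulatory protein that Gckr encodes. After a meal, sugar phosphates activate the transcription factor ChREBP, and glycolysis and glycogen synthesis run. During fasting, glucagon raises the transcription of the gluconeogenic enzymes, glycogen is broken down, and pyruvate is steered away from the pyruvate dehydrogenase complex. Most of these genes are controlled at the protein level as well as by transcription, and RNA counts report only the latter together with RNA decay. The study asked what the loss of INPP4B on a HFD does to liver gene expression, and the question here is which steps of this pathway differed between the genotypes in RNA level.

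Depth ranged from 25893430 to 31427831 counts in the WT libraries and from 32738435 to 36662531 in the Inpp4b-/- libraries. The Inpp4b gene itself (ENSMUSG00000037940, chromosome 8, 81342556 to 82127914, GRCm38) had 6, 20, 5 and 8 counts in WT 1 to 4 and 33, 10, 9 and 14 counts in Inpp4b-/- 1 to 4. These counts were not lower in the libraries labelled Inpp4b-/- (log2 ratio of mean CPM 0.49, where CPM is the count scaled to a library of 1000000 reads, two-sided exact permutation p = 0.486, smallest possible 0.0286). The deleted exons are not given in the sources used here, so the counts check the genotype labels only weakly, and every direction below rests on the labels. The 7 hepatocyte markers found of 8 listed summed to 75902 to 81115 CPM in WT and 78992 to 97686 CPM in Inpp4b-/- libraries. Alb held most of that sum, at 52515 to 55896 CPM in WT and 56223 to 70754 CPM in Inpp4b-/- libraries. Of these 7 markers, 2 were higher and 5 lower, with log2 fold changes from -0.49 for Cps1 to 0.31 for Ttr. Kupffer cell and macrophage markers (7 of 7 found) summed to 49.4 to 145 CPM in WT and 103 to 183 CPM in Inpp4b-/- libraries, and erythroid markers (3 of 3) to 103 to 411 and 200 to 329 CPM. Stellate cell markers (6 of 6) summed to 159 to 218 and 166 to 227 CPM, with Lrat higher in the Inpp4b-/- libraries at a log2 fold change of 0.73 (edgeR adjusted p = 0.164, DESeq2 adjusted p = 0.0310). Of these 6 markers, 3 were higher and 3 lower, from -0.30 for Des to 0.73 for Lrat. Cholangiocyte markers (5 of 5) summed to 23.7 to 31.6 and 29.7 to 40.6 CPM, with Spp1 at 0.54 (edgeR adjusted p = 0.141, DESeq2 adjusted p = 0.0360). Spp1 held most of that sum, at 17.3 to 22.8 CPM in WT and 23.9 to 34.0 CPM in Inpp4b-/- libraries. Of these 5 markers, 4 were higher and 1 lower, Sox9 at -0.71 (edgeR adjusted p = 0.350, DESeq2 adjusted p = 0.239). Neither Lrat nor Spp1 overlapped between the groups, which held for 8.72% of all genes. Endothelial markers (6 of 6) summed to 108 to 136 and 93.2 to 142 CPM. Adipocyte and skeletal muscle markers were not in the table, at 0 of 5 and 0 of 4. In bulk liver, fewer cells of a type and less RNA per cell cannot be told apart, and the part of cell composition in the results was not tested.

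None of the 35 genes passed the test across all genes, in which a call required both an adjusted p below 0.10 by edgeR and a difference of more than 1.3-fold. Of all 14866 genes, 174 were called, or 1.17%, with 82 higher (0.552%) and 92 lower (0.619%) in the Inpp4b-/- libraries. The smallest edgeR adjusted p among the 35 was 0.156, for Mpc1. At an unadjusted p under 0.05 there were 9 of the 35 genes, 7 higher and 2 lower, a share of 25.7% against 13.9% of all tested genes (6.8% higher and 7.14% lower). That count was 5 without WT 1 and 11 without WT 2. The log2 fold change was above 0 for 21 of the 35 genes, against 50.4% of all genes, and the median of the 35 was 0.08 on the log2 scale, against 0.0027 for all genes. Without Inpp4b-/- 4 the median of the 35 was 0.0046. With DESeq2, 4.04% of 17016 genes were called at the same thresholds (1.92% higher and 2.12% lower), and 1 of the 35, Mpc1, was among them.

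**Figure D1:**
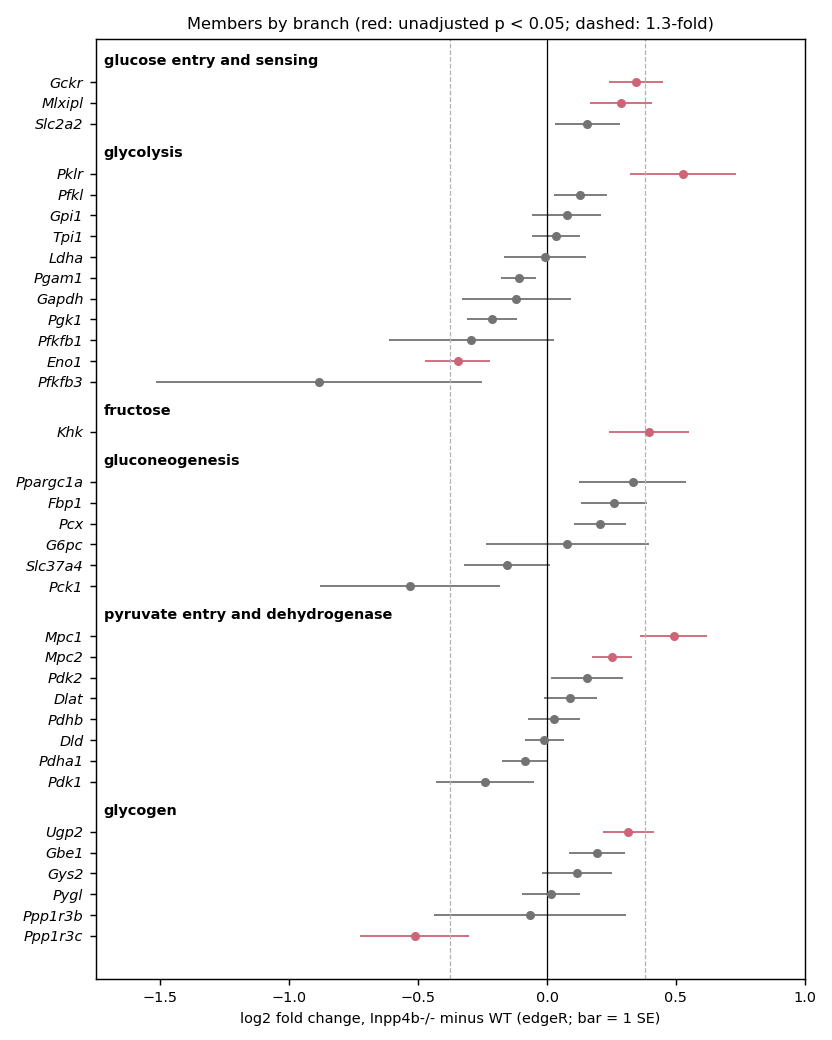
Fitted log2 fold change (Inpp4b-/- minus WT, x axis) of each of the 35 genes, by branch of the pathway on the y axis, with a bar of 1 SE. Points in red have an unadjusted edgeR p under 0.05, dashed lines mark a 1.3-fold difference, and the 3 genes of glucose entry and sensing all lie above 0 while 7 of the 11 glycolysis genes lie below it.

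The levels of the 35 genes spanned a wide range when CPM was divided by exon length. Pck1, which encodes the cytosolic phosphoenolpyruvate carboxykinase of gluconeogenesis, averaged 785 CPM per kilobase in WT and 543 in Inpp4b-/- livers. Fbp1, the fructose-1,6-bisphosphatase gene, was at 469 and 561, and Khk, the ketohexokinase gene, was at 256 and 337. Thus 2 gluconeogenic enzymes and the fructose kinase had the highest levels of the set. By these means Fbp1 was below Pck1 in WT and above it in Inpp4b-/- livers, an order that did not hold in every library. Among the Inpp4b-/- libraries Fbp1 was above Pck1 only in Inpp4b-/- 2. Pck1 was at 1013 CPM there, against 1863 to 2401 CPM in the other Inpp4b-/- libraries. At the low end was Ppargc1a, a coactivator of gluconeogenic transcription, at 1.25 and 1.58 CPM per kilobase, and Pfkfb3, which makes the allosteric activator of phosphofructokinase, was at 6.85 and 3.71. Pfkl, the liver phosphofructokinase, was at 6.11 and 6.68 CPM per kilobase, so its ratio to Fbp1 had a median of 0.0130 in WT and 0.0118 in Inpp4b-/- libraries, and the libraries of the groups overlapped.

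**Figure D2:**
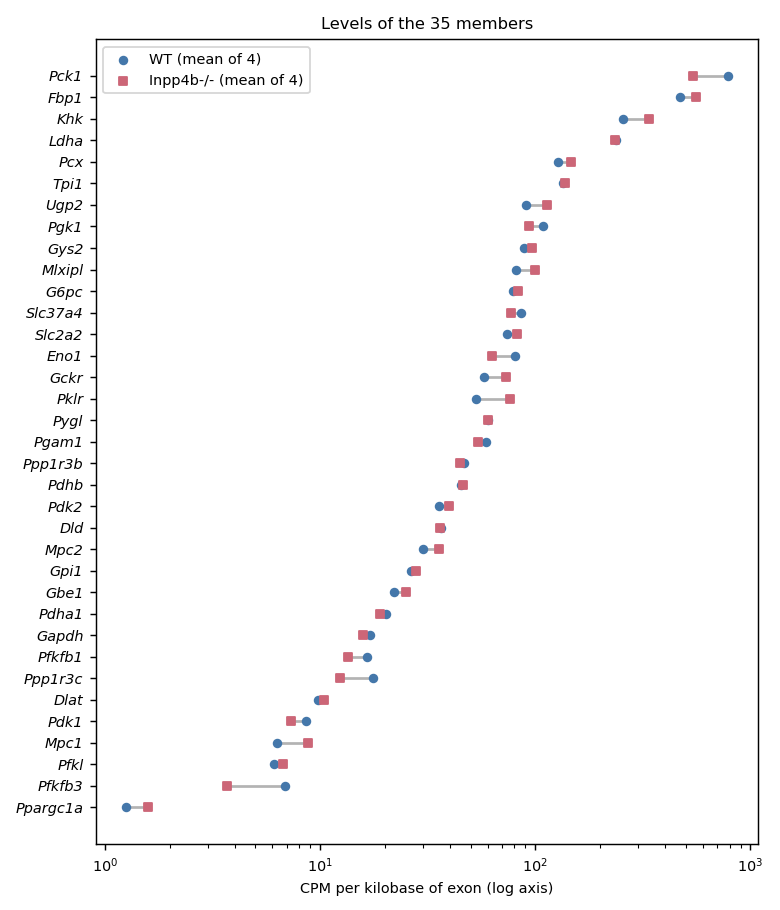
Mean level of each of the 35 genes in WT (circles) and Inpp4b-/- livers (squares), in CPM per kilobase of exon on a log axis, with genes ordered by level on the y axis and a line joining the 2 means. By these means Pck1 is highest in WT at 785 and Fbp1 in Inpp4b-/- livers at 561, where the low Pck1 of Inpp4b-/- 2 sets the order. Ppargc1a is lowest at 1.25 and 1.58, and the distances between genotypes are small beside the range between genes.

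All 3 genes of glucose entry and sensing were higher in the Inpp4b-/- livers, with a median log2 fold change of 0.29. Gckr (ENSMUSG00000059434, chromosome 5, 31297443 to 31327314) encodes the regulatory protein that restrains glucose phosphorylation when glucose is low. It was at 231, 301, 239 and 230 CPM in WT 1 to 4 and at 344, 307, 303 and 317 CPM in Inpp4b-/- 1 to 4. WT 2 stood above the other WT libraries, yet the groups did not overlap, which held for 3 of the 35 genes, all higher in the Inpp4b-/- livers, and for 8.72% of all genes (4.63% higher and 4.09% lower). The log2 fold change of Gckr was 0.34 (SE 0.11), with an edgeR adjusted p = 0.201, and without WT 2 it was 0.44, with an edgeR adjusted p = 0.0665. Mlxipl, which encodes ChREBP, was at 395, 521, 446 and 443 CPM in WT and at 526, 574, 467 and 633 CPM in Inpp4b-/- livers. The groups overlapped, and the log2 fold change was 0.29 (SE 0.12, edgeR adjusted p = 0.326). Slc2a2, the GLUT2 gene, was at 379, 495, 470 and 347 CPM in WT and at 501, 416, 490 and 478 CPM in Inpp4b-/- livers (log2 fold change 0.16, SE 0.13).

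ChREBP acts as a pair with MLX and binds carbohydrate response elements, whose parts resemble the E-box letters CACGTG. Promoter sequences from RefSeq (GRCm38.p6), the 250 bases before each start site, were found for 33 of the 35 genes, and Gys2 and Ppp1r3b had none in that table. The carbohydrate response element motif was in 0.0974% of 32851 such windows, or 0.111% of 27025 genes, and in 1 of the 33 genes, Pklr. The E-box CACGTG was in 6.02% of windows, or 6.86% of genes, and in 7 of the 33 genes: Mlxipl, Pfkfb3, Ldha, Khk, Pcx, Pdk2 and Ppp1r3c. The CREB core site, TGACG on either strand, was in 17.8% of windows, or 19.8% of genes, and in 9 of the 33 genes, and the nuclear receptor core site AGGTCA was in 14.0% of windows, or 15.8% of genes, and in 8 of the 33. The forkhead site TGTTTAC was in 3.17% of windows, or 3.54% of genes, and in none of the 33 genes. The stretches below show the matches in 4 genes of sensing, glycolysis, fructose use and gluconeogenesis, 30 bases each, on the plus strand, with the matched letters in capitals. A match describes the letters and is not evidence of binding.
Mlxipl E-box, chr5:135089780-135089809, before the upstream start site: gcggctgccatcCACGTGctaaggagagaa
Pklr carbohydrate response element, chr3:89136447-89136476, in an intron of the longer Pklr transcripts: ggacgcCACGGGGCACTCCCGTGgttcctg
Khk overlapping CREB core site and E-box, chr5:30921475-30921504, in an untranslated exon of 1 annotated transcript: cagcgttcccCGTCACGTGacaccgttaat
Pck1 CREB core site, chr2:173152971-173153000, outside annotated transcripts: gcctgccccttaCGTCAgaggcgagcctcc
The Mlxipl match lies 98 bases before the start it belongs to, the Pklr match 170 bases, the Khk E-box 71 bases and the Pck1 match 90 bases.

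Glycolysis did not move as a block. Of its 11 genes, 4 had a log2 fold change above 0 and 7 below, with a median of -0.11, and only Pklr and Eno1 had an unadjusted p under 0.05, in opposite directions. Pklr (ENSMUSG00000041237, chromosome 3, 89136142 to 89146784) encodes the liver and red cell pyruvate kinase, the last step of glycolysis and the gene whose promoter holds the response element printed above. It was at 128, 204, 203 and 153 CPM in WT and at 177, 284, 213 and 316 CPM in Inpp4b-/- livers. The 2 highest libraries were Inpp4b-/- 2 and 4, and the groups overlapped, with a log2 fold change of 0.53 (SE 0.21, edgeR adjusted p = 0.297). The exons of Pklr overlap those of Hcn3 on the opposite strand, and the strand setting of the counting is not given in the sources used here. Khk (ENSMUSG00000029162, chromosome 5, 30921431 to 30931248), which feeds fructose into the same pathway, was at 409, 573, 463 and 395 CPM in WT and at 510, 548, 608 and 754 CPM in Inpp4b-/- livers. WT 2 lay within the Inpp4b-/- range, and the log2 fold change was 0.39 (SE 0.15, edgeR adjusted p = 0.297).

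**Figure D3:**
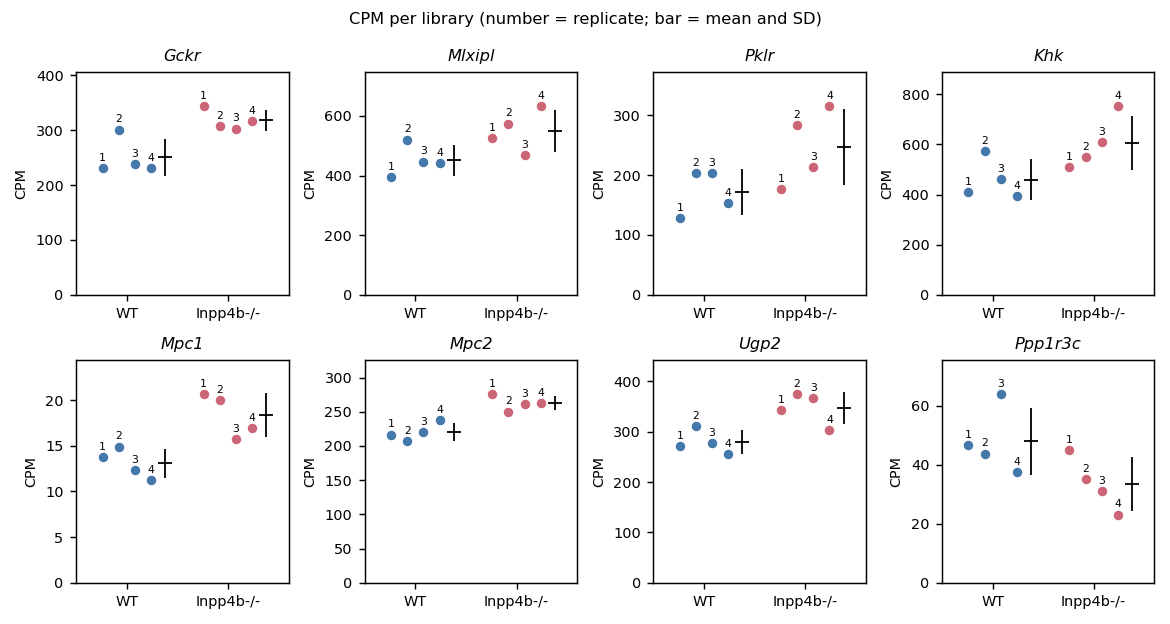
CPM of 8 genes with an unadjusted edgeR p under 0.05 in each library (y axis, from 0), WT in blue and Inpp4b-/- in red, with the replicate number above each point and the mean and SD of 4 libraries as a bar. Gckr, Mpc1 and Mpc2 have no overlap between the genotypes, and Ppp1r3c is the gene of the 8 with the lower Inpp4b-/- mean.

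The ninth such gene was Eno1 (ENSMUSG00000063524, chromosome 4, 150236721 to 150248879), the enolase of liver. It was at 377, 457, 389 and 502 CPM in WT and at 291, 339, 325 and 400 CPM in Inpp4b-/- livers, with a log2 fold change of -0.35 (SE 0.13, edgeR adjusted p = 0.272). Its transcript is nearly identical to 2 other genes with counts, Eno1b on chromosome 18 and the processed pseudogene Gm4735 on chromosome 2, at 99.5% and 99.6% identity. Whether the reads counted for them came from these genes or from Eno1 was not tested. Eno1b was at 56.1, 68.7, 58.6 and 9.52 CPM in WT and at 111, 122, 128 and 148 CPM in Inpp4b-/- livers. Gm4735 likewise had its lowest library in WT 4, at 5.18 CPM, and its highest in Inpp4b-/- 4, at 110 CPM, so that WT 4 was lowest for both copies and highest for Eno1. The copies had log2 fold changes of 1.40 and 1.47 (edgeR adjusted p = 0.219 and 0.248), opposite in sign to Eno1. When the counts of Eno1 and its 3 copies in the table were summed, the copies made up 30.3% of the sum and the log2 fold change became 0.14 (SE 0.11, edgeR adjusted p = 0.628). The direction of Eno1 thus depended on whether its copies were counted with it.

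Gapdh had the same limit to a greater degree. Its transcript shares sequence with 79 other genes, 76 of them pseudogenes, and 34 copies in the table held 87.1% of the summed counts. Gapdh alone had a log2 fold change of -0.12 (SE 0.21), and the sum had 0.28 (SE 0.13, edgeR adjusted p = 0.386). With copies summed, the median of the glycolysis genes was 0.04 in place of -0.11. The copies of Gpi1, Ldha, Pgk1, Pgam1 and Pdhb held under 1% of their sums.

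**Figure D4:**
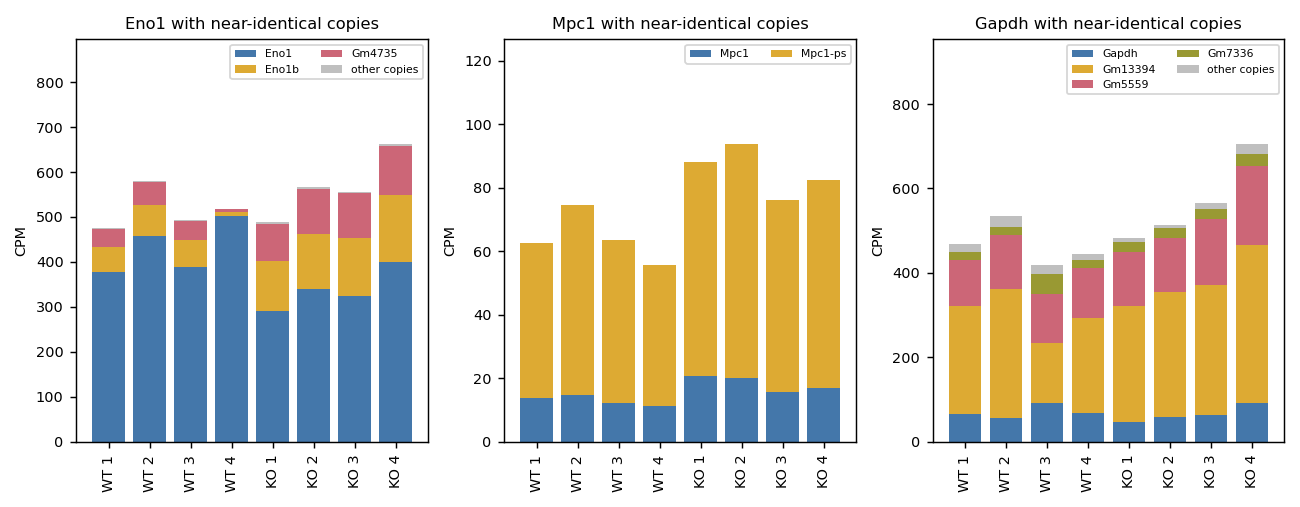
CPM of Eno1, Mpc1 and Gapdh in each library (y axis, from 0), stacked with their near-identical copies, with WT libraries on the left and Inpp4b-/- libraries (KO) on the right of each panel. The Eno1 bar alone is higher in WT while the stack is not, Mpc1-ps holds most of the Mpc1 stack, and Gapdh is the smaller part of its stack in every library.

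The other glycolysis enzymes had smaller values. Gpi1, Tpi1 and Pfkl had log2 fold changes of 0.08, 0.04 and 0.13, and Ldha, Pgam1 and Pgk1 of -0.01, -0.11 and -0.21. Pfkl was at 34.7 to 47.4 CPM in WT and 41.5 to 46.4 CPM in Inpp4b-/- livers. Pgam1, a phosphoglycerate mutase, was the steadiest of the 35 genes, with a coefficient of variation of 1.59% among the Inpp4b-/- livers and 4.00% among the WT livers. The genes of the bifunctional enzymes that set fructose-2,6-bisphosphate varied widely, Pfkfb1 among the Inpp4b-/- livers and Pfkfb3 among the WT livers. Pfkfb1, the main liver form, was at 80.2, 72.8, 54.3 and 58.8 CPM in WT and at 30.1, 31.8, 74.1 and 81.2 CPM in Inpp4b-/- livers, so that Inpp4b-/- 1 and 2 were below every other library (log2 fold change -0.29, SE 0.32). Pfkfb3 was at 75.3, 13.3, 11.7 and 107 CPM in WT and at 31.6, 36.3, 23.8 and 20.4 CPM in Inpp4b-/- livers. WT 1 and WT 4 were above all Inpp4b-/- libraries and WT 2 and WT 3 below them, and the log2 fold change was -0.88 (SE 0.63), or -0.25 without WT 4.

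No gene of gluconeogenesis had an unadjusted p under 0.05, and the branch median was 0.14, with 4 of 6 genes above 0. That median was -0.04 without Inpp4b-/- 4 and 0.25 without Inpp4b-/- 2. Pck1 was at 4618, 1852, 1645 and 2653 CPM in WT and at 2166, 1013, 2401 and 1863 CPM in Inpp4b-/- livers. WT 1 was far above the other libraries, and the log2 fold change of -0.53 (SE 0.35, edgeR adjusted p = 0.534) was -0.14 without that library. G6pc, the glucose-6-phosphatase that releases free glucose, was at 167, 271, 173 and 152 CPM in WT and at 191, 93.7, 209 and 312 CPM in Inpp4b-/- livers. The groups overlapped across nearly the whole range, with a log2 fold change of 0.08 (SE 0.32). Its partner Slc37a4, the glucose-6-phosphate transporter, was within 233 to 259 CPM in WT, while Inpp4b-/- 1 and 2 were at 164 and 177 CPM and Inpp4b-/- 3 and 4 at 257 and 280 CPM (log2 fold change -0.16, SE 0.17). Fbp1 was at 859, 814, 894 and 628 CPM in WT and at 920, 979, 1072 and 851 CPM in Inpp4b-/- livers (log2 fold change 0.26, SE 0.13, edgeR adjusted p = 0.404). Pcx, the pyruvate carboxylase gene, was at 654, 574, 617 and 570 CPM in WT and at 656, 627, 697 and 805 CPM in Inpp4b-/- livers (log2 fold change 0.20, SE 0.10, edgeR adjusted p = 0.408). Ppargc1a was at 5.86 to 11.5 CPM in WT and 9.24 to 12.8 CPM in Inpp4b-/- livers (log2 fold change 0.33, SE 0.21). Thus Fbp1, Pcx and Ppargc1a had higher means in the Inpp4b-/- livers and Pck1 a lower one, each within the spread of the libraries.

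**Figure D5:**
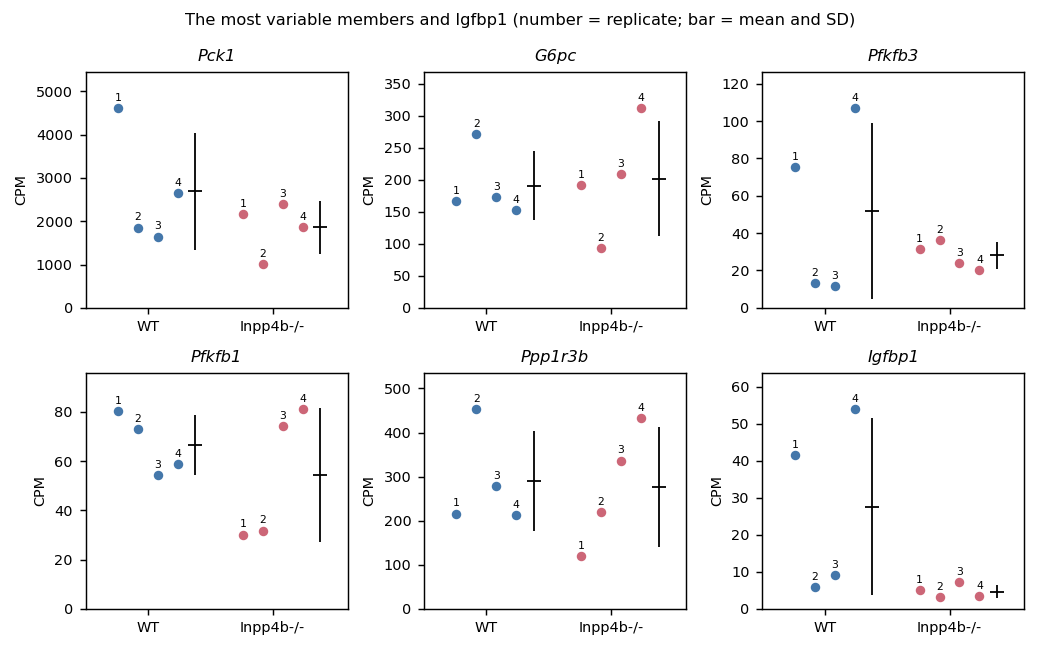
CPM in each library (y axis, from 0) of 5 of the most variable of the 35 genes and of Igfbp1, a fasting-induced liver gene, with the replicate number above each point and the mean and SD of 4 libraries as a bar. WT 1 and WT 4 are the highest libraries for Pck1, Pfkfb3 and Igfbp1, and Inpp4b-/- 1 and 2 are the lowest for Pfkfb1.

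Both genes of the mitochondrial pyruvate carrier were among the 3 genes whose libraries did not overlap. MPC1 and MPC2 form a heterodimer in the inner mitochondrial membrane through which cytosolic pyruvate reaches both pyruvate carboxylase and pyruvate dehydrogenase. Mpc1 (ENSMUSG00000023861, chromosome 17, 8282904 to 8297661) was at 13.8, 14.9, 12.3 and 11.3 CPM in WT and at 20.7, 20.03, 15.7 and 17.0 CPM in Inpp4b-/- livers. Mpc2 (ENSMUSG00000026568, chromosome 1, 165460637 to 165481214) was at 217, 207, 221 and 238 CPM in WT and at 276, 250, 261 and 263 CPM in Inpp4b-/- livers. For both genes every Inpp4b-/- library was above every WT library, which held for 4.63% of all genes in that direction. The log2 fold change of Mpc1 was 0.49 (SE 0.13, edgeR adjusted p = 0.156, DESeq2 adjusted p = 0.0470), and that of Mpc2 was 0.25 (SE 0.08, edgeR adjusted p = 0.208). More reads were counted for Mpc1-ps, a processed pseudogene on chromosome 12, than for Mpc1, with means of 1919 and 513 counts. Mpc1-ps is 100% identical to Mpc1 over 27.2% of the transcript. Whether the reads counted for Mpc1-ps came from it or from Mpc1 was not tested. Mpc1-ps was at 48.8, 59.7, 51.1 and 44.5 CPM in WT and at 67.6, 73.9, 60.4 and 65.7 CPM in Inpp4b-/- livers. The sum of both, of which Mpc1-ps made up 78.9%, was at 55.7 to 74.6 CPM in WT and 76.1 to 93.9 CPM in Inpp4b-/- livers. Its log2 fold change was 0.41 (SE 0.11, edgeR adjusted p = 0.151). Unlike Eno1, the direction of Mpc1 was thus the same for the gene, its copy and their sum, although the level of Mpc1 itself is uncertain.

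Of the pyruvate dehydrogenase complex, which acts on the imported pyruvate, the 4 genes among the 35 had log2 fold changes no larger than their SEs. Pdha1, Pdhb, Dlat and Dld, which encode subunits, were at -0.09, 0.03, 0.09 and -0.01 on that scale, with SEs of 0.09, 0.10, 0.10 and 0.08. Pdhx, a further subunit gene of the complex outside the 35, had a log2 fold change of -0.28 (SE 0.15, edgeR adjusted p = 0.426). The inhibitory kinases of the complex gave log2 fold changes of 0.16 for Pdk2 (SE 0.14) and -0.24 for Pdk1 (SE 0.19). Pdk2, the main liver form, was at 102, 131, 125 and 95.3 CPM in WT and at 112, 107, 134 and 151 CPM in Inpp4b-/- livers. Pdk1 was at 51.0, 95.7, 67.6 and 53.3 CPM in WT and at 52.6, 50.4, 58.9 and 64.8 CPM in Inpp4b-/- livers, with WT 2 the highest of all. Pdk4, the kinase induced by fasting, was at 1.25 to 3.18 CPM in WT and 2.31 to 3.31 CPM in Inpp4b-/- livers (log2 fold change 0.41, edgeR adjusted p = 0.589).

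Among the 6 glycogen genes, 4 had a log2 fold change above 0 and 2 below, with a median of 0.07, which was 0.0037 without Inpp4b-/- 4. Ugp2 (ENSMUSG00000001891, chromosome 11, 21321138 to 21371201) makes UDP-glucose, the donor for glycogen synthase. It was at 271, 312, 278 and 256 CPM in WT and at 343, 375, 367 and 303 CPM in Inpp4b-/- livers. Only WT 2 and Inpp4b-/- 4 crossed, and the log2 fold change was 0.31 (SE 0.10, edgeR adjusted p = 0.212). Gys2, the liver glycogen synthase, was at 226, 208, 303 and 204 CPM in WT and at 256, 237, 240 and 288 CPM in Inpp4b-/- livers (log2 fold change 0.12, SE 0.14). Gbe1, the branching enzyme, had a log2 fold change of 0.19 (SE 0.11). Pygl, the liver phosphorylase that breaks glycogen down, was at 345, 464, 436 and 408 CPM in WT and at 375, 417, 408 and 471 CPM in Inpp4b-/- livers (log2 fold change 0.01, SE 0.11). The ratio of Gys2 to Pygl per kilobase thus had medians of 1.498 in WT and 1.56 in Inpp4b-/- libraries, which overlapped.

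The glycogen-targeting subunits, which bring protein phosphatase 1 to the glycogen particle, varied more than the enzymes. Ppp1r3c (ENSMUSG00000067279, chromosome 19, 36731731 to 36736653) was at 46.6, 43.8, 64.0 and 37.4 CPM in WT and at 45.0, 35.2, 31.1 and 23.1 CPM in Inpp4b-/- livers. The groups overlapped, with a log2 fold change of -0.51 (SE 0.21, edgeR adjusted p = 0.321). Ppp1r3b, the main liver subunit, was at 216, 454, 278 and 212 CPM in WT and at 120, 219, 336 and 433 CPM in Inpp4b-/- livers (log2 fold change -0.07, SE 0.37). The 4 Inpp4b-/- libraries had opposite orders for these subunits, so the per-kilobase ratio of Ppp1r3b to Ppp1r3c ran from 1.17 in Inpp4b-/- 1 to 8.22 in Inpp4b-/- 4, against 1.91 to 4.54 in WT.

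Ratios of genes within a library were compared between the genotypes as well. The ratio of Pklr to Pck1 per kilobase had a median of 0.0887 in WT and 0.137 in Inpp4b-/- libraries, and the ratio of Pcx to Pck1 had medians of 0.189 and 0.265. Both of these ratios overlapped between the groups. The spread among libraries was large for several members: the median coefficient of variation of the 35 genes was 13.7% in WT and 11.5% in Inpp4b-/- livers, against 11.6% and 9.94% for 8087 genes at or above the level of the lowest member. Inpp4b-/- 4 was the highest library for 12 of the 35 genes, and WT 4 the lowest for 12.

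Of 69 other genes listed for the pathway, 65 passed the filter and none was called by edgeR, and DESeq2 called 1, Tigar. At an unadjusted p under 0.05 there were 4 higher and 3 lower of the 65, or 10.8%, against 13.9% of all tested genes. Tigar, which encodes a fructose-2,6-bisphosphatase, was at 9.44 to 16.2 CPM in WT and 7.64 to 8.80 CPM in Inpp4b-/- livers, with a log2 fold change of -0.61 (SE 0.17, edgeR adjusted p = 0.164, DESeq2 adjusted p = 0.0328). Mlx, the partner of ChREBP, had a log2 fold change of -0.23 (edgeR adjusted p = 0.340), opposite in sign to Mlxipl. Pck2, the mitochondrial phosphoenolpyruvate carboxykinase, had a log2 fold change of -0.73 (edgeR adjusted p = 0.329). The 4 higher genes were Slc16a7, a monocarboxylate transporter, at 0.50, Phka2, the liver phosphorylase kinase subunit, at 0.44, Sord, the sorbitol dehydrogenase, at 0.31 and Pgm1, a phosphoglucomutase, at 0.25, with edgeR adjusted p from 0.267 to 0.324. Without WT 2, Slc16a7 and Phka2 were called, with log2 fold changes of 0.73 and 0.61.

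Genes that respond to fasting were compared next, since Pck1 and G6pc belong to the same response. Of 10 fasting- and glucagon-induced genes, 8 were lower in the Inpp4b-/- livers, with a median log2 fold change of -0.46. Sik1, a kinase gene induced by cyclic AMP, fell from 45.0 to 53.5 CPM in WT to 12.9 to 24.6 CPM in Inpp4b-/- livers (log2 fold change -1.38, edgeR adjusted p = 0.0152). Igfbp1 was at 41.6, 5.76, 8.99 and 54.0 CPM in WT and at 3.13 to 7.14 CPM in Inpp4b-/- livers (log2 fold change -2.57, edgeR adjusted p = 0.151, DESeq2 adjusted p = 0.0285), with WT 1 and WT 4 high, the same 2 libraries as for Pck1 and Pfkfb3. G6pc did not share that order: among the WT libraries it was highest in WT 2, at 271 CPM, and lowest in WT 4, at 152 CPM. Tat, an amino acid-degrading enzyme of fasting, was at 2830 CPM in WT 1, 1047 to 1114 CPM in the other WT libraries and 362 to 882 CPM in Inpp4b-/- livers (log2 fold change -1.08, edgeR adjusted p = 0.254).

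Of 11 tested clock genes, 6 were higher and 5 lower, and none was called by edgeR, while DESeq2 called Per1. Per1 was at 98.6, 67.7, 41.0 and 95.4 CPM in WT and at 32.4 to 42.3 CPM in Inpp4b-/- livers (log2 fold change -0.97, edgeR adjusted p = 0.136, DESeq2 adjusted p = 0.00713), and Dbp had a log2 fold change of 0.35 (edgeR adjusted p = 0.268). Gluconeogenesis is mainly periportal and glycolysis mainly pericentral in the liver lobule. Of 8 pericentral genes, 7 were lower, with a median log2 fold change of -0.24, among them Axin2 at -0.76 (edgeR adjusted p = 0.277). The 1 higher pericentral gene was Lgr5, at 0.34 (edgeR adjusted p = 0.663). Of 8 periportal genes, 5 were higher and 3 lower, with a median of 0.12. Hal was at 0.30 and Hsd17b13 at 0.34 (edgeR adjusted p = 0.244 and 0.272). The largest change among the periportal genes was a lower value, Cps1 at -0.49 (edgeR adjusted p = 0.582). None of the zonation genes was called by edgeR. Time of day at collection is not given in the sources used here, and the part of time and feeding in the values of the 35 genes was not tested.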

How the data were processed

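Liver RNA was extracted with Tri Reagent and sequenced as 150-bp paired-end libraries (NEBNext Ultra, with Ribo-Zero depletion per the labels). The authors aligned reads to GRCm38 with HISAT2, counted them per gene with HTSeq and deposited raw counts. Their size-factor-normalized table was not used here. Symbols, coordinates and exon lengths were taken from GENCODE M21, in which all 18095 identifiers were found. Groups and replicate numbers came from the sample titles, and the diet from the design text. The titles also carry a numbered code for each library and do not say what it marks. These codes are consecutive for Inpp4b-/- 1 and 2 and for WT 1 to 3. How the livers of a group were related is not described.

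The quasi-likelihood test of edgeR 4.0.16 was run on the counts (filterByExpr, TMM, glmQLFit and glmQLFTest, genotype only, 4 WT and 4 Inpp4b-/- libraries, all 14866 genes that passed). A call needed a difference of more than 1.3-fold and a p below 0.10 after Benjamini-Hochberg adjustment. CPM used TMM library sizes. Genes below the filter got a two-sided exact permutation test over 70 arrangements. Totals ranged from 25893430 to 36662531 counts, and p-values weigh the difference between the genotypes against the spread between these libraries. The fitting script was tested on simulated data. It called 10 of 67 genes changed by 0.585 on the log2 scale, 42 of 65 changed by 1 and 56 of 64 changed by 2. Of its 117 calls, 9 were false. A gene without a call may therefore still differ. Alternatives were DESeq2 1.42.0, other scalings and filters, a block for the replicate number, and fits that left out 1 library. Near-identical copies (BLAST 2.17.0, at least 95% identity over 150 bases and 20% of the transcript) were summed in an alternative chosen after seeing the data, as was the carbohydrate response element motif. Names follow the pathway lists. Per-library values are given for genes with an unadjusted p under 0.05 or no overlap, the extremes of each branch and the key enzymes. The members and lists were chosen with earlier results of these data known. R 4.3.3 and Python 3.11.15 were used. Values of some other genes of the lists are not reported here.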

Additional observations from a re-analysis of the deposited data

Results flagged for a closer look

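In 8 of the 108 groups of 4 libraries examined for the named genes, 1 library stood far from the other 3 by Dixon's criterion, where chance gives about 1 in 20. In WT 2, Gckr was at 301 CPM against 230 to 239 CPM in the other WT libraries, and Pdhb, a pyruvate dehydrogenase subunit gene, was at 202 CPM against 164 to 166 CPM. In Inpp4b-/- 1, Gbe1 was at 115 CPM against 140 to 142 CPM in the other Inpp4b-/- libraries. In Inpp4b-/- 3, Sord was at 1531 CPM against 1141 to 1207 CPM. In WT 4, Pgm1 was at 156 CPM against 193 to 194 CPM. Tat was at 362 CPM in Inpp4b-/- 2 against 795 to 882 CPM, and at 2830 CPM in WT 1 against 1047 to 1114 CPM. In WT 3, Dbp was at 140 CPM against 105 to 110 CPM.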

How the results depend on the processing

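Over all genes, 174 were called, 688 with DESeq2, 71 at an adjusted p under 0.05 and 53 (without Inpp4b-/- 2) to 345 (without WT 2) when 1 library was left out. Called members numbered 1 with DESeq2 (Mpc1) and 0 to 1 when 1 library was left out (Gckr without WT 2), and called genes of the wider pathway 1 with DESeq2 and 0 to 2. Members with an unadjusted p under 0.05 numbered 5 to 11 when 1 library was left out. Summing copies reversed Eno1 to 0.14 and Gapdh to 0.28 on the log2 scale. Upper quartile scaling reversed Ldha to 0.021 and Dld to 0.015, and it moved the median of all genes by at most 0.028. Leaving out 1 library gave log2 ranges that crossed 0 for Gpi1 (-0.0073 to 0.17), Tpi1 (-0.012 to 0.076), Gapdh (-0.33 to 0.037), Ldha (-0.14 to 0.12), G6pc (-0.21 to 0.32), Pdhb (-0.029 to 0.095), Dld (-0.042 to 0.013), Pygl (-0.062 to 0.066) and Ppp1r3b (-0.37 to 0.22). The other 25 members kept their direction under every alternative. The cause was not tested.

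The replicate numbers did not pair the libraries: same-numbered libraries correlated at -0.17 to -0.01 in their deviations, other pairs at -0.03 to 0.14. With the replicate block, 26 genes and none of the members were called, Ldha was at 0.020, and the Sik1 call was lost (edgeR adjusted p = 0.125). Depth limited Inpp4b most, at 5 to 33 counts.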
